A study of Mus musculus with 8 samples.

Results

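The regions described here are the H3K36me3 peaks of the 2 KO libraries, each called by the authors once against Input and once against IgG, and the question is which of them were called against both controls. H3K36me3 is trimethylation of lysine 36 of histone H3, measured by chromatin immunoprecipitation and sequencing (ChIP-seq). Members were all peaks of these 4 lists, 467541 of the 1364150 peaks in the 8 lists of the series. By library, replicate 1 had 122589 peaks against Input and 81376 against IgG, and replicate 2 had 159459 and 104117. The cells were bone marrow stromal cells (BMSCs) of C57BL/6J mice carrying floxed Setd2 alleles (Setd2 fl/fl), passaged 2 times. The KO cells received a lentivirus that expresses Cre recombinase, which deletes the floxed part of the gene, were selected for 4 days with 2 µg/ml puromycin and were then fixed for 10 min in 1% formaldehyde. Control lists of the KO cells came from 1 Input library (chromatin without antibody) and 1 IgG library (a non-specific antibody) of cells with the same genotype, virus and selection, and WT cells were not used here. The labels do not give a promoter or cell type for Cre, nor the share of cells in which it acted, and do not say that the 2 KO libraries came from separate cultures.

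In cells with active Setd2, the enzyme travels with elongating RNA polymerase II and places H3K36me3 over the bodies of transcribed genes, with most of the mark toward the 3′ end. Other enzymes of the NSD family and Ash1l place lower methylation states at the same lysine. A peak caller asks whether immunoprecipitated reads exceed a control at a position. Input follows differences in shearing, copy number and mappability, while IgG follows in addition what sticks to beads and antibody. A region called against both therefore exceeded 2 different kinds of background, which is a statement on calling and does not by itself say that the mark is present.

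Examples of regions called in all 4 lists are shown by their DNA, since the lists themselves hold no sequence. The RefSeq set (GRCm38.p6) holds 32851 promoters of 27025 genes, each from 250 bases before to 50 after a start. Of these promoters, 56 (0.1705%) held at least 1 base covered in all 4 lists, and 10 were covered wholly. Of the 56, 18 were at protein-coding genes, which make up 17492 of the 27025 genes. In all 4 lists 0.107% of promoter bases was covered, where the genome had 0.158%. In the lines that follow, the 250 bases before the start are given 5′ to 3′ on the gene's strand, and capitals mark bases covered in all 4 lists. The set was chosen after its values were seen, to show the forms that such promoters took: a window with a repeated unit, a family of near-copies, and promoters of single genes.
LOC115488002, chr12:18648740-18648989, plus strand: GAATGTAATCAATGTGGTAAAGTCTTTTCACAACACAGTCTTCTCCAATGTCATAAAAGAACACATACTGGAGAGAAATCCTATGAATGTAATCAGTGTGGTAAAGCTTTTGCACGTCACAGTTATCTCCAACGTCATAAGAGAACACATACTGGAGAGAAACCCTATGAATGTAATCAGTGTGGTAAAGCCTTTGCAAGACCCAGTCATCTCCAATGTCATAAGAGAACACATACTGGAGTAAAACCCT
Gm5862, chr5:26022892-26023141, minus strand: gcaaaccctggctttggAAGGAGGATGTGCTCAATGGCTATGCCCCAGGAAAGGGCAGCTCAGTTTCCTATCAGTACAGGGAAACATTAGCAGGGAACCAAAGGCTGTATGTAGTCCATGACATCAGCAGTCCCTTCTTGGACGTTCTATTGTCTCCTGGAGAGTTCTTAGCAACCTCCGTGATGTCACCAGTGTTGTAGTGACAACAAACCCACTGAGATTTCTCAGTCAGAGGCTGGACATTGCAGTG
Gm10471, chr5:26089265-26089514, minus strand: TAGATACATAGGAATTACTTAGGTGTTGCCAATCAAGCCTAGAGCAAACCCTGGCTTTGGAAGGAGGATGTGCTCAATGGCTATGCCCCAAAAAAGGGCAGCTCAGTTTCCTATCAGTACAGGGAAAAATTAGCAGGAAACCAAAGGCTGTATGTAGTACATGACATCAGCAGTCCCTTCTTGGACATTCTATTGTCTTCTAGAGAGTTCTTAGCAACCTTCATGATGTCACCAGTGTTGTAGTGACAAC
Gm10220, chr5:26121426-26121675, minus strand: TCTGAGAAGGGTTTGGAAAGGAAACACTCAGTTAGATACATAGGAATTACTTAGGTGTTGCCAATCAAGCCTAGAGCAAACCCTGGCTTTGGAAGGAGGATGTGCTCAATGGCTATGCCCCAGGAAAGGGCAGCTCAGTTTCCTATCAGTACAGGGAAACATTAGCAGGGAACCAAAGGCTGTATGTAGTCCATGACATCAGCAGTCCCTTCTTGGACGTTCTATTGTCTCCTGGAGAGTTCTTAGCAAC
Trim52, chr14:106105948-106106197, plus strand: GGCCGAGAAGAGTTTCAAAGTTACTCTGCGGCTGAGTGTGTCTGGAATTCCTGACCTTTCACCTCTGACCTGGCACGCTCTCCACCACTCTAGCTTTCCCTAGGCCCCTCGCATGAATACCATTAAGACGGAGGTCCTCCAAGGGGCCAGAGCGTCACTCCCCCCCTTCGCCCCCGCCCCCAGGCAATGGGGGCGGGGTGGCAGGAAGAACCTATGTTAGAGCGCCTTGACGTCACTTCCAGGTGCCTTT
Igf2, chr7:142666817-142667066, minus strand: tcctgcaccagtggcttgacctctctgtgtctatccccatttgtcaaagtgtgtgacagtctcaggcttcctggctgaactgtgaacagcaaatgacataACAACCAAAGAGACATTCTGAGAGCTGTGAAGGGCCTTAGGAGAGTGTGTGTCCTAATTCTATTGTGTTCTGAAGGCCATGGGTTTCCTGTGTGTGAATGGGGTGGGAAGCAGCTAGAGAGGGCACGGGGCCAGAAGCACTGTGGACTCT

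The sequence before LOC115488002 holds the 16-base unit AGAACACATACTGGAG in 3 copies, and all 250 bases were covered in all 4 lists. The 3 windows of Gm5862, Gm10471 and Gm10220, neighbours on chromosome 5, are the same sequence set at different distances from the start: Gm5862 and Gm10220 match at 175 of 175 aligned bases when shifted by 75, and Gm10471 matches Gm10220 at 96.3% of 218 bases when shifted by 32. Reads from such copies cannot be placed with certainty, and how the authors treated reads with several matches is not given in the sources used here. Trim52, which encodes a protein of the tripartite motif family, is a single gene whose window was also covered wholly. At Igf2, an imprinted gene for a growth factor, coverage in all 4 lists took in the 150 bases nearest the start. Searched on both strands over the whole 300 bases, the GC box GGGCGG was found in 8 of the 56 promoters (14.3%) against 35.7% of all promoters, the CCAAT box CCAAT in 24 (42.9%) against 37.4%, and the TATA box TATAAA in 6 (10.7%) against 13.6%.

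Promoters as a class were covered less than the genome in all 4 lists. Against Input, peaks covered 1.84% of promoter bases in replicate 1 and 2.24% in replicate 2, where they covered 2.63% and 3.47% of the genome. Against IgG the promoter values were 1.26% and 1.43%, and the genome values 1.74% and 2.26%. The 8213 promoters richest in CpG (20 to 67 per 300 bases) were nearly empty, with 0.0741% and 0.124% of bases covered against Input and 0.0655% and 0.0965% against IgG. The 8213 poorest in CpG (0 to 3) had 3.15% and 4.13% against Input and 2.05% and 2.56% against IgG. The order of the CpG-richest below the CpG-poorest promoters therefore stood under either control in both libraries. The split by CpG was chosen after the data were seen.

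Setd2 itself, on chromosome 9 from 110532500 to 110618633 (GRCm38), is given first among the genes. The choice of control made no difference to it. In replicate 1, 0.690% of its span was covered against Input and the same 0.690% against IgG. In replicate 2, 1.70% was covered against either control, and 0.608% of the span was covered in all 4 lists. A peak list does not show which exons remain, so the deletion is not checked by these values. Nor do the lists show the cell type: peaks in both Input lists were found on 10 of 26 stromal cell markers and on 6 of 20 haematopoietic markers, against 9480 of all 21887 protein-coding genes, with 2.57% and 3.598% of the summed stromal spans covered against Input in replicates 1 and 2 and 2.84% and 4.63% of the haematopoietic spans. Over all protein-coding genes these values were 2.74% and 3.598%.

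The first comparison asked how many regions were called against each control. Changing the control from Input to IgG removed about the same share of regions from each library and added very few. In replicate 1, peaks covered 71.7 Mb against Input and 47.4 Mb against IgG, and in replicate 2 they covered 94.4 and 61.4 Mb, which is 2.63%, 1.74%, 3.47% and 2.26% of the genome. Input gave 1.51 and 1.54 times the bases of IgG and 1.51 and 1.53 times the peaks. The difference in bases was 28.6 Mb on average, 24.3 in replicate 1 and 33.0 in replicate 2. Both libraries went the same way, and the exact two-sided sign-flip test over the 2 libraries gave p = 0.5, the smallest value that 2 libraries allow, so no difference between controls can pass a test in this design. The widths hardly differed, with means of 585 and 583 bp in replicate 1 and 592 and 590 bp in replicate 2. With 1 Input and 1 IgG library, the kind of control cannot be told apart from the depth or quality of that library, and the lists hold no read counts. Both KO libraries were called against these same 2 controls, so their differences are not independent. How far this raises their agreement was not tested.

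**Figure D1:**
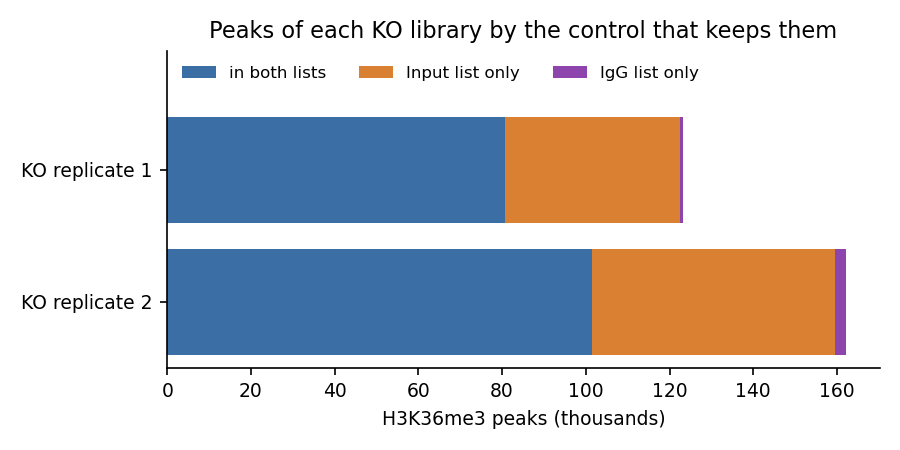
Number of H3K36me3 peaks (horizontal axis) of each KO library by whether a peak stood in both lists, in the Input list only or in the IgG list only. Peaks of both lists numbered 80736 and 101466, and those of the IgG list only, 640 and 2651, form the narrow right end of each bar.

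The IgG list was almost a subset of the Input list of its library. Of the 81376 IgG-list peaks of replicate 1, 80736 had a peak with the same start and end in the Input list, as did 101466 of 104117 in replicate 2, and the remaining peaks overlapped no Input-list peak at all. In bases, 99.0% and 97.3% of the IgG list was also covered against Input. Read the other way, 65.9% and 63.6% of Input-list peaks were kept against IgG, and 65.5% and 63.3% of Input-list bases. The share kept was similar across annotation: 66.5% and 65.0% of bases in protein-coding spans, 64.8% and 62.1% in other annotated genes, and 64.9% and 62.3% outside genes.

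The share of Input-list peaks kept against IgG was higher in the highest than in the lowest class of the authors' score, which was ranked within each list. It did not rise at every step. With the Input list cut by score into 10 classes of equal size, in the lowest class 57.0% and 57.5% of peaks were also in the IgG list, and in the highest class 71.8% and 73.2%. In replicate 1, class 9 had 73.6%, above the highest class. In replicate 2, class 4 (61.1%) lay just below class 3 (61.2%). The very highest scores belonged to peaks that were not kept. The highest score of a kept peak was 287.1 in replicate 1 and 311.1 in replicate 2, while Input-list peaks above these reached 3135 and 3100. A limit of 300 was set near those values after they had been seen, so that few or no kept peaks lie above it follows from the choice: 256 peaks of replicate 1 did, with 0 in the IgG list, and 144 of replicate 2, with 1. Of these, 255 and 143 overlapped an Input-list peak of the other library, or 99.6% and 99.3%, against 17.8% and 13.8% of lower-scoring peaks. Both Input lists were called against the same Input library, so this recurrence is not independent of it. The same 3 places led the Input list of each library. In replicate 1 the order was Qpct (3135), which encodes an enzyme that cyclises N-terminal glutamine, at chr17:79086930-79089195, then the long non-coding RNA genes Gm34907 on chromosome 14 (3100) and Gm39317 on chromosome 9 (2596). In replicate 2 the order was Gm34907 (3100), Qpct (2221) and Gm39317 (1975). The scale of the score is not stated and the lists differ in level, with medians of 44.3 and 35.2, so scores are not compared between libraries. No read counts are given, so whether the IgG library had a peak of its own there was not tested.

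**Figure D2:**
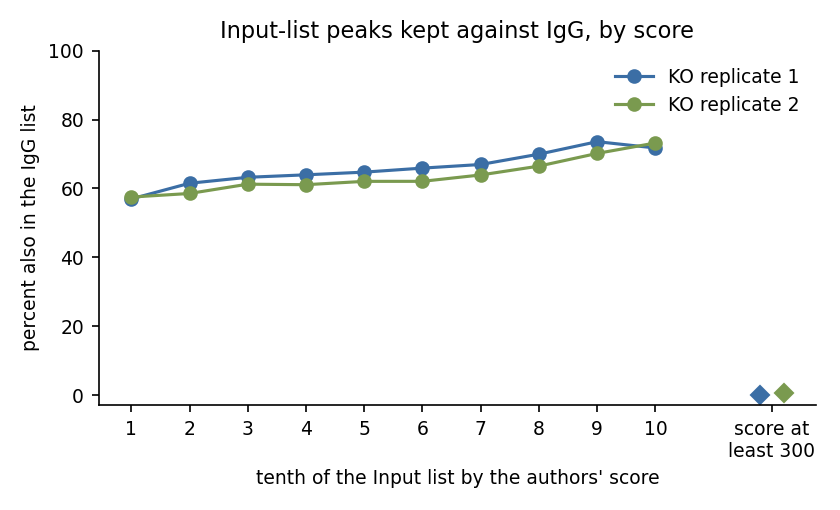
Share of Input-list peaks also in the IgG list (percent, vertical axis) over 10 classes of equal size in order of the authors' score, 1 the lowest, with 1 line per KO library. Diamonds show peaks scoring at least 300, a limit set after the values were seen, which also belong to the highest class: the share was 0 in replicate 1 and 0.694% in replicate 2.

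The 2 libraries shared few positions under either control. The Input lists shared 8.24 Mb, which is 11.5% of the bases of replicate 1 and 8.73% of those of replicate 2. The IgG lists shared 4.55 Mb, or 9.60% and 7.41%. For scale, replicate 2 covered 3.47% of the genome against Input and 2.26% against IgG. Input-list peaks that met an Input-list peak of the other library were kept against IgG less often than those that met none, 62.4% against 66.6% in replicate 1 and 59.9% against 64.2% in replicate 2. Being kept against IgG and meeting the other library's Input list therefore did not go together. The difference had the same sign in both libraries and was not tested further. Against the other library's IgG list the order was the reverse. That list took in 6.96% of Input-list bases and 9.60% of IgG-list bases in replicate 1, and 5.41% and 7.41% in replicate 2.

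Regions covered in all 4 lists numbered 11976 and came to 4.29 Mb, or 0.158% of the genome, with a median width of 367 bp. They were 9.13% and 7.18% of the bases that each library kept against both controls. They were 52.1% of what both Input lists shared and 94.2% of what both IgG lists shared. Another 6766 regions (2.62 Mb) were in both Input lists and in neither IgG list, and 122 regions (0.0895 Mb) in both IgG lists and in neither Input list. Of the regions in all 4 lists, 9270 were at least 200 bp wide and 53 at least 1 kb. The widest, 3420 bp at chrX:169987238-169990657, lay at the end of Mid1, a ubiquitin ligase gene that spans the boundary of the pseudoautosomal region. Next came 2421 bp at chr4:146468397-146470817 in Zfp992 and a pseudogene, 1981 bp at chr9:123935264-123937244 outside genes, 1750 bp at chr4:147180775-147182524 in Zfp978, and 1617 bp at chr12:4220035-4221651 in Cenpo, a kinetochore gene.

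Genes and the space outside them were covered nearly in proportion to their size, whichever control was used. Protein-coding spans make up 37.9% of the genome, and they held 39.4% of covered bases against Input and 40.0% against IgG in replicate 1, and 39.2% and 40.2% in replicate 2. The difference, Input minus IgG, was -0.56 and -1.04 percentage points, with a mean of -0.797 (SD 0.342, n = 2 libraries, exact sign-flip p = 0.5). Outside annotated genes lay 51.2% and 50.7% of covered bases in replicate 1 and 51.4% and 50.5% in replicate 2, where the genome has 54.2%. Here Input was higher by 0.516 and 0.931 points, 0.724 on average (SD 0.293, n = 2, exact sign-flip p = 0.5). Both differences had the same sign in the 2 libraries, which share both controls, and no test can call them. In all 4 lists, 40.0% of bases lay in protein-coding spans and 50.7% outside genes. The space over 50 kb from any gene was covered least, 1.62% and 1.03% in replicate 1 and 2.21% and 1.39% in replicate 2 against Input and IgG, while the space 5 to 50 kb from a gene had 2.95%, 1.95%, 3.88% and 2.48%. Space outside genes was counted from the first base of each chromosome, and unsequenced or unmappable stretches were not removed. It includes chromosome Y, covered at only 0.113% in replicate 1 and 0.116% in replicate 2 against Input. How far such stretches lower the values far from genes, or raise the genome's 54.2%, was not tested.

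Within genes, coverage was lowest at the start and highest toward the 3′ end in each of the 4 lists. Over 11080 protein-coding genes of at least 10 kb with a known strand, the first of 20 equal bins was covered at 1.18% against Input and 0.775% against IgG in replicate 1, and at 1.61% and 1.03% in replicate 2. Bin 18 was the highest, at 3.85%, 2.62%, 4.75% and 3.36%. Zinc finger genes are among these 11080 and are described apart below. In the other 10795 genes the highest bins were 15 and 16 in replicate 1 and 15 and 18 in replicate 2. Coverage in all 4 lists was 0.0721% in the first bin and 0.395% in bin 18. The 10 kb before the start averaged 2.77%, 1.87%, 3.62% and 2.43%, but the 2 kb nearest the start had 1.43%, 0.942%, 1.88% and 1.26%. Within genes, coverage stayed below the 10 kb average through bin 6, at 2.74%, 1.84%, 3.48% and 2.35%. The low stretch thus reached from just before the start into the first part of the gene. The same shape stood under either control at a lower level for IgG.

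Zinc finger genes had the largest share of genes with a base in all 4 lists among the 15 gene lists. They encode DNA-binding proteins with repeated zinc finger domains, which are mostly encoded by the last exon, and many lie in clusters of related genes. Of 397 genes with a Zfp symbol, 158 (39.8%) had a base covered in all 4 lists, against 12.97% of the 21490 other protein-coding genes and 13.5% of all 21887. Their summed span was covered at 6.80% against Input and 4.73% against IgG in replicate 1 and at 8.30% and 5.78% in replicate 2. Other protein-coding genes had 2.69%, 1.80%, 3.54% and 2.36%. In all 4 lists the values were 1.23% and 0.153%. No test of the list was run, so these values describe it beside the other genes.

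The 3′ position was more marked in zinc finger genes. In the 285 of at least 10 kb with a known strand, bin 18 of 20 was covered at 17.3% against Input and 14.4% against IgG in replicate 1, and at 19.6% and 16.6% in replicate 2. The first bin had 0.929%, 0.560%, 1.11% and 0.5002%. In all 4 lists, bin 18 had 6.31% and the first bin 0.00877%. The 10795 other genes reached at most 3.51% (bin 15), 2.40% (bin 16), 4.42% (bin 15) and 3.01% (bin 18), and 0.277% (bin 15) in all 4 lists. These maxima were little above the 2 kb farthest before the start, which had 3.20%, 2.14%, 4.32% and 2.97%, and 0.238% in all 4 lists.

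**Figure D3:**
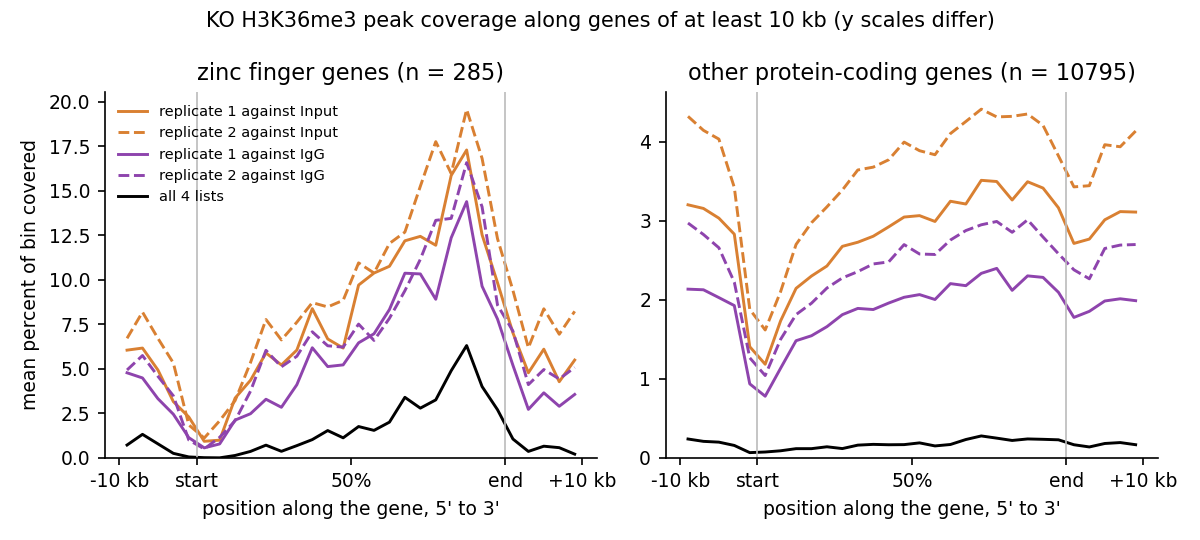
Mean percent of each bin covered by peaks (vertical axis, with different scales in the panels) along genes of at least 10 kb, in 20 bins from start to end and 5 bins of 2 kb on each side, for 285 zinc finger genes (left) and 10795 other protein-coding genes (right). Lines stand for the 2 KO libraries against Input and IgG and for bases in all 4 lists (black), and in zinc finger genes all 5 lines are highest in bin 18.

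Ranked by the share of the span in all 4 lists, the leading 10 among genes of 10 kb or longer were Zfp709, Zfp867, Gm5141, B230307C23Rik, Zfp33b, Zfp180, Gm4924, Zfp110, Gm51425 and Zfp605, from 19.8% down to 11.6%. Zfp709, on chromosome 8 from 71882068 to 71892565, was covered at 50.6% against Input and 33.3% against IgG in replicate 1 and at 44.5% and 32.0% in replicate 2. Zfp867, on chromosome 11 from 59461197 to 59472527, had the same coverage under both controls, 40.9% in replicate 1 and 28.5% in replicate 2. Zfp180 on chromosome 7 had 31.9% and 27.5% in replicate 1 and 19.8% under either control in replicate 2. Zfp110 on chromosome 7 had 31.1% under either control in replicate 1 and 32.9% and 30.1% in replicate 2. The largest drops from Input to IgG among the 10 were in Gm51425, from 46.0% to 25.3% in replicate 2, and in Zfp709. Of the 18 genes of at least 10 kb with at least 10% in all 4 lists, 14 (77.8%) had a Zfp, Zkscan or Zscan symbol, which 2.56% of genes of that length have.

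Zinc finger genes were not alike in how they responded to the control. The 16 between 145.0 and 148.0 Mb of chromosome 4 were set apart because this stretch holds many bases called against Input only, so their low share is a description. They kept 44.0% and 45.7% of their Input-list bases against IgG, and the other 381 kept 74.9% and 72.6% and other protein-coding genes 66.4% and 65.1%. On the chromosome 4 genes, 17.9% and 20.2% of the span was covered against Input and 9.35% and 11.03% against IgG. The window from 147.0 to 148.0 Mb there had both the most bases in all 4 lists of any window of 1 Mb, 21.5 kb, and the most that were called only against Input in both libraries, 33.8 kb. Zfp978, on chromosome 4 from 147124882 to 147392027, had 28.3% and 14.99% in replicate 1 and 26.0% and 13.9% in replicate 2. Elsewhere, chr10 82 to 83 Mb with Zfp873, Zfp938 and Gm4924 had 15.9 kb in all 4 lists and only 1.55 kb against Input alone.

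The comparison of single genes asked which were covered more against 1 control. A gene was called when its coverage differed by at least 10 percentage points of its span in the same direction in both libraries, a rule of size with no p-value. Since both libraries share the same 2 controls, the second library is not an independent check on a control. Of 21887 protein-coding genes, 80 (0.366%) were called higher against Input and 4 (0.0183%) higher against IgG. Of the 13962 genes of at least 10 kb these were 19 (0.136%) and 0. With each list scaled to its own mean coverage, which removes the overall difference between controls, the numbers became 53 and 30. Replicate 1 alone gave 345 and 11, and replicate 2 alone 424 and 15. Among the 80, 55 had no base under an IgG-list peak in either library, as did 8839 of all 21887 protein-coding genes, and their median length was 4.10 kb against 17.2 kb for all protein-coding genes.

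Among the genes of at least 10 kb, Hjurp had the largest difference. It encodes the chaperone that loads the centromeric histone CENP-A, and lies on chromosome 1 from 88258856 to 88277644. Its span was covered at 75.6% in replicate 1 and 39.1% in replicate 2 against Input, and at 0 in both against IgG. Its neighbour Mroh2a had 65.7% and 14.2% against Input and 7.41% and 0 against IgG. Gm2808 on chromosome 17 had 42.3% and 38.0% against Input and 14.7% and 10.7% against IgG. Thbs1, which encodes the matrix protein thrombospondin 1, had 12.22% and 21.3% against Input and 0 in both against IgG. Gm7609, Zkscan7, Zfp738, Zfp709, Psg27 and Zfp978 completed the 10 largest.

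**Figure D4:**
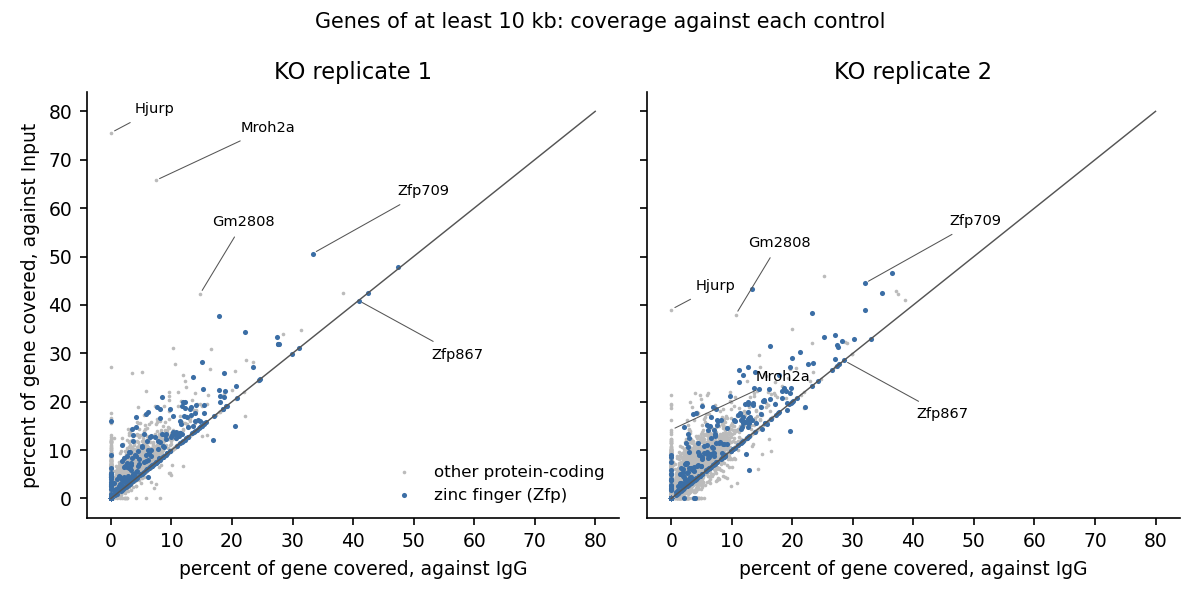
Percent of gene span covered against IgG (horizontal) and against Input (vertical) in each KO library, for protein-coding genes of at least 10 kb, with zinc finger genes in blue and the diagonal marking equal coverage. Hjurp lies on the vertical axis in both libraries at 75.6% and 39.1%, and Zfp867 on the diagonal at 40.9% and 28.5%.

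Shorter genes in this direction included histone genes and a translation factor gene, named here after their values were seen. H4c1, a histone H4 gene, had 76.3% and 72.3% against Input and 0 against IgG in both libraries. H4f16, another histone H4 gene, had 81.6% and 76.1% against Input and 0 against IgG. H4c1 and H4f16 span 0.455 and 0.439 kb, less than the median Input-list peak of 566 bp in replicate 1 and 568 bp in replicate 2. Of the 71 listed histone genes, 4 had a base in both Input lists and 3 were called. Their median coverage was 0 under either control in both libraries. Eef2, the translation elongation factor, had 15.5% and 33.4% against Input and 0 against IgG. Il1b, an inflammatory cytokine, had 18.1% and 15.9%, Cxcl5, a chemokine, 27.5% and 16.1%, and Acta1, skeletal muscle actin, 16.9% and 19.3% against Input, and all 3 had 0 against IgG. Eef2, Il1b, Cxcl5 and Acta1 span 5.88, 6.60, 2.33 and 3.02 kb. Olfactory and vomeronasal receptor genes supplied 10 of the 80 (12.5%, against 6.68% of all genes), Pramel genes 6 (7.5%, against 0.215%) and Zfp, Zkscan or Zscan genes 9 (11.3%, against 1.94%). Similarity among members of these families was not measured, and the part of read placing in the calls was not tested. The receptor genes had a median length of 0.951 kb, so 1 peak of median width can cover more than 10 points of such a span.

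The 4 genes called higher against IgG were Gm52481, Gm36327, Gm40369 and Phlda3. Gm52481, on chromosome Y from 90742729 to 90745083, was covered over its whole span against IgG and at 0 against Input in both libraries. Gm36327 and Gm40369 on chromosome 6 had 42.4% and 16.1%, and 19.3% and 16.6%, against IgG, and 0 against Input. Phlda3, a p53 target with a pleckstrin homology domain, had 32.7% and 16.7% against IgG and 15.6% and 0 against Input. Of genes of at least 10 kb, Dynlt1b came nearest, with 8.19% and 14.3% against IgG and 0 and 6.16% against Input.

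Peaks in the IgG list only were few, and some of them were very wide. Their median width was 591 bp in replicate 1 and 574 bp in replicate 2, against 562 and 565 bp for peaks of both lists. The means, 720 and 621 bp against 582 and 589 bp, were raised by wide peaks: 13 of 640 and 19 of 2651 were wider than 2 kb, against 33 of 80736 and 52 of 101466. In replicate 2 the upper quartile of their width, 594 bp, lay below that of peaks of both lists, 629 bp. The 122 regions in both IgG lists and in neither Input list were gathered in few places, with 75.8% of their bases in 27 of 2732 windows of 1 Mb. Chromosome Y held 16.3% and chromosome X 12.5% of these shared bases. The peaks of a single library were less gathered there, with 22506 of 460900 bp at the end of chromosome Y in replicate 1 and 23626 of 1645245 bp in replicate 2. The widest in each library was the same place, chrY:90737266-90746202 in replicate 1 (8937 bp) and chrY:90737289-90746059 in replicate 2 (8771 bp), over Gm52481. Peaks of 3892 and 5058 bp lay at Erdr1 near the end of chromosome X. The treatment of reads with several matches is not stated, and whether these X and Y places are separate was not tested.

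Genes of rRNAs, tRNAs and snRNAs kept the smallest shares of their Input-list bases against IgG among the annotated gene classes. Annotated rRNA genes, 63 in number and 7.92 kb in all, were covered at 65.4% in replicate 1 and 68.6% in replicate 2 against Input and at 0 in both against IgG. Peaks touched 43 and 46 of the 63 against Input and none against IgG. Most are copies of the 5S rRNA gene, which encodes a component of the large ribosomal subunit. Genes of tRNAs, the adaptors of translation, kept 19.4% and 0% of their Input-list bases, with 11 of 408 genes touched in either Input list. They span 0.0304 Mb, covered at 2.57% and 2.78% against Input, so these shares rest on few bases. Genes of snRNAs, which include parts of the spliceosome, kept 21.2% and 31.4%. Genes of snoRNAs, which guide RNA modification, kept 49.7% and 48.6%, and pseudogenes 58.7% and 56.8%. All of these were below the 65.5% and 63.3% kept over the genome. This split by class was made after the data were seen.

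**Figure D5:**
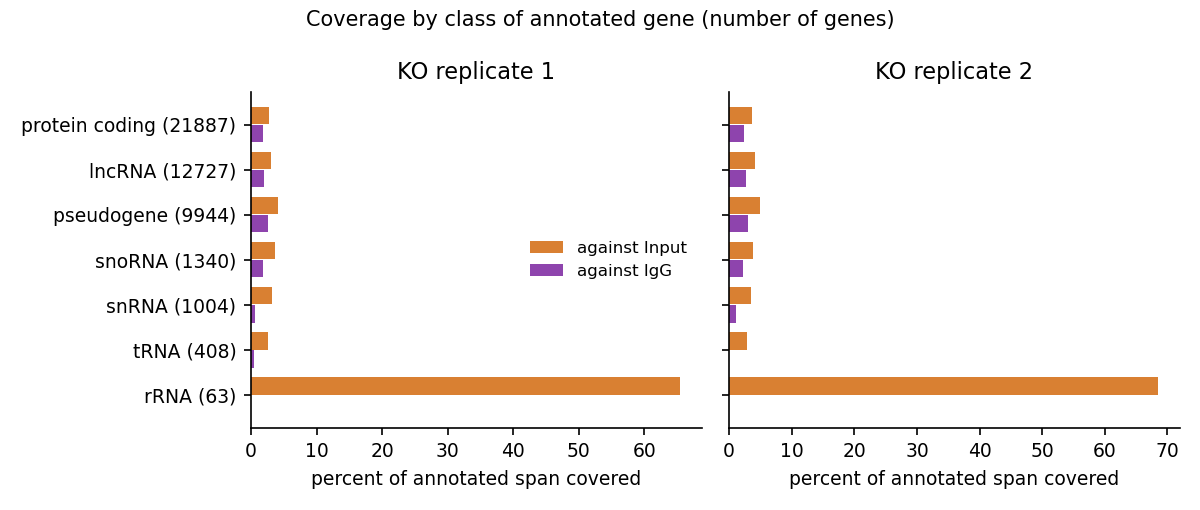
Percent of the annotated span covered (horizontal axis) against Input and against IgG in each KO library, by class of annotated gene, with the number of genes in brackets. Coverage of rRNA genes was 65.4% and 68.6% against Input and 0 against IgG, while protein-coding genes had 2.74% and 3.58% against Input and 1.84% and 2.39% against IgG.

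The other gene lists ranged widely in the share of Input-list bases kept against IgG, where the genome had 65.5% and 63.3%. The 26 stromal cell markers kept 47.6% and 40.2% of their Input-list bases and the 71 histone genes 34.4% and 47.0%. The 81 ribosomal protein genes kept 48.0% and 44.5% of a very low coverage, 0.372% and 0.313% against Input, and the 1463 olfactory and vomeronasal receptor genes kept 48.7% and 48.7%. The 20 haematopoietic markers kept 80.7% and 79.7%, the 26 genes of RNA polymerase II elongation 84.1% and 71.9%, and 33 genes that write, erase or read H3K36 methylation 75.6% and 64.8%. Other lists lay near the genome: 26 splicing factors (67.5% and 65.5%), 10 endothelial markers (66.0% and 69.1%) and 20 adipocyte genes (63.3% and 67.0%). Summed spans were short: 0.561 Mb for haematopoietic markers, 1.08 Mb for elongation genes, 0.296 Mb for ribosomal proteins and 0.1085 Mb for histone genes. These shares therefore rest on few covered bases, and differences between lists were not tested. Over all protein-coding genes, 13.5% had a base in all 4 lists, and those that did had a median length of 79.0 kb. No splicing factor (26), ribosomal protein (81) or histone gene (71) had one, and the medians of these lists were 18.6, 3.16 and 0.493 kb. Of the 26 stromal markers 2 (7.69%) had one, Lepr, the leptin receptor of marrow stroma, at 0.992% and Alcam at 0.0225% of the span. Among 20 osteoblast genes 4 (20%) had one, led by Bmp2, a bone-inducing ligand, which had 10.9% in replicate 1 and 8.88% in replicate 2 under either control and 4.26% in all 4 lists. Among the 33 H3K36 genes 6 (18.2%) had one, led by Kdm8 (1.93%) and Prdm9, a meiotic methyltransferase (1.92%), both with the same coverage under either control. Nelfa, a subunit of the negative elongation factor, led the elongation list at 2.43%.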

How the data were processed

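Per the submitters' processing notes, the aligner of the H3K36me3 ChIP-seq reads was Bowtie2, of no stated version, and the build GRCm38. The authors deposited, per the labels, a peak list for each library against the Input and against the IgG library of its genotype, with positions and a score per peak. Peak names start with MACS, but the version and settings of the caller, the scale of its score and the treatment of reads with several matches are not stated in the labels. The score was used only to rank or filter peaks within a list. The lists hold no read counts, so depth is unknown, and no upper limit can be put on the signal of a region without a peak.

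All peaks lay on autosomes, X or Y, and positions are counted from 1. Coverage is the percent of a span under peaks, and at least 1 bp counts as overlap. Gene spans and promoters came from RefSeq tables of GRCm38.p6 (49943 genes, no exons). The genome was taken from the first base of each chromosome to its last gene or peak, 2722 Mb. Unsequenced or unmappable stretches were not removed. Groups and replicate numbers came from sample titles. Controls were compared within each library, with the exact two-sided sign-flip test over 2 libraries where a test is given. Since separate cultures are not stated, p-values reflect a spread between libraries that could be technical. The 2 libraries also share both controls, so their differences are not independent. Interval code was tested on simulated intervals. Alternatives were a merge of peaks within 1 kb, peaks at or above the median score, 1 library at a time, gene spans extended by 5 kb, other overlap, width and call limits, and scaled coverage.

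The members and gene lists were chosen with earlier results of these data known. The genes named by rule were Setd2, the leading 10 by coverage in all 4 lists among genes of 10 kb or longer, the 10 with the largest difference in each direction, the genes at the 10 widest shared regions and up to 2 genes per list with the highest coverage in all 4 lists; not all of them are printed, and others were chosen after their values were seen. Computation used pandas 2.3.3 and numpy 2.4.6 in Python 3.11.15, and matplotlib 3.10.9 for figures.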

Additional observations from a re-analysis of the deposited data

How the results depend on the processing

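The differences in bases covered, in the share outside genes and in the share in protein-coding spans kept their sign under each alternative run, but not their size: with peaks at or above the median score of their list they were 14.8 Mb, 1.73 points and -1.55 points, where the values reported are 28.6 Mb, 0.724 and -0.797 points. Of 49 alternative values, 27 stayed within their limit and 22 moved, where the limit was the sign for these 3 differences, 1 SD between libraries for other shares and 1.5 times for counts and for bases in all 4 lists. Each difference was taken within a library, so the reported comparison is itself paired. No paired analysis was possible because of that beyond the reported one. With the same filter on the score, the share of IgG-list bases also covered against Input was 72.4% and that of peaks 71.4%, bases in all 4 lists came to 1.01 Mb, of which 41.7% lay in protein-coding spans, and 22 and 8 genes were called higher against Input and IgG. That share in protein-coding spans was 40.15% with peaks within 1 kb merged and 45.6% with spans extended by 5 kb. Genes called numbered 278 and 6 at 5 points, 25 and 1 at 20 points, 19 and 0 among genes of at least 10 kb, and 53 and 30 with scaled coverage. With 1 library left out, bases in all remaining lists came to 47.0 to 59.8 Mb, the protein-coding share to 40.0% to 40.2%, and calls to 345 to 424 and 11 to 15, since fewer lists had to agree. With 1 control library of each kind, no alternative reaches the spread between controls.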

Other observations

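Chromosomes differed in coverage in the same way under both controls. Chromosome X was covered at 1.86% against Input and 1.19% against IgG in replicate 1 and at 2.52% and 1.59% in replicate 2, below the lowest autosome in each list (2.56%, 1.68%, 3.38% and 2.17%). Chromosome 13 was the highest autosome in each, at 3.25%, 2.23%, 4.34% and 2.88%. The share of Input-list bases kept against IgG varied little among autosomes, from 63.0% to 68.1% in replicate 1 and from 61.0% to 65.9% in replicate 2. In windows of 1 Mb the libraries were far more alike than base by base: over 2470 autosomal windows the Input lists gave Pearson r = 0.907 and Spearman rho = 0.883 and the IgG lists 0.876 and 0.859, as a description over windows that share gene content and mappability.

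Bases called only against Input in both libraries included clusters of gene families, and since windows were ranked by these bases, the low shares kept there are descriptions. The window at 20 to 21 Mb of chromosome 8, with a defensin gene, held 25.2 kb of them and kept 23.8% and 20.3% of its Input-list bases. The window at 94 to 95 Mb of chromosome 5, with Pramel genes, held 16.5 kb and kept 33.6% and 29.3%. The window at 59 to 60 Mb of chromosome 7, with Ube3a and the imprinted genes Snrpn and Snurf, held 11.77 kb and kept 32.5% and 39.0%. Clustered protocadherin genes, which encode neuronal adhesion proteins, had a base in all 4 lists in 20 of 57 cases (35.1%), against 13.5% of all protein-coding genes. Their spans are long (a median of 90.2 kb against 17.2 kb) and overlap, so the same bases count for several members, and the share of the summed span in all 4 lists was 0.209% against 0.167%. Of their Input-list bases, 71.2% and 78.9% were kept, against 65.5% and 63.3% over the genome.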
